A study of Mus musculus with 1 sample.

Results

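DNA replication and DNA repair genes were read on 1 one-colour array of RAW264.7, a cultured mouse cell line with macrophage character. The group was taken by gene symbol: DNA polymerases, the origin recognition, MCM, GINS, RFC, RPA, Fanconi, RAD, XRCC, ERCC, ligase and BRCA genes, with Cdc6, Cdc45, Cdt1 and Pcna. It held 87 genes read by 95 probes, of 19321 genes and 20690 probes that carry a symbol on the array. The sample was the parental line, grown in RPMI medium with 10% fetal calf serum. The study was designed to set this line against mutants raised with the mutagen ENU that no longer take up peroxiredoxin. The mutants are not analysed here, so there is no comparison of genotypes and no test. The array has no replicate, and precision is limited by the number of arrays.

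Before a cell divides, it loads a ring-shaped helicase at each replication origin, opens the DNA in S phase and copies it with polymerases held by a sliding clamp. Many genes of this machinery are switched on together before S phase by E2F transcription factors. Repair pathways remove damaged bases, unlink crosslinked strands and rejoin breaks, and some of their parts are also needed at ordinary replication forks. Macrophages in tissue mostly rest outside the cell cycle, while RAW264.7 is a transformed line that keeps dividing.

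Signal is the median pixel brightness of a spot in the red scan, in arbitrary units, with no background subtracted. It depends on the probe as well as on the transcript, so probes were set against limits and not against each other. The blank limit, 22.98, is the mean plus 2 SD of blank spots. A stricter one, 55.8, is called the receptor limit: 95% of 1223 probes for smell and taste receptors, genes used mainly by sensory cells, read no higher. It is 2.43 times the blank limit. A gene took its highest probe. All 12 macrophage markers passed both limits, among them Csf1r at 642 and Cd68 at 6442. Of 24 markers of other cell types, 10 were over the blank limit and 1 of these over the stricter limit, the germ cell gene Ddx4 at 190. With the local background subtracted, or with normexp, 5 of the 24 were over the blank limit.

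Nearly all replication and repair genes gave signal. Over the blank limit lay 86 of 87, or 98.9% (exact Clopper-Pearson 95% interval 93.8 to 100), against 72.8% of all named genes. Over the receptor limit lay 80, or 92.0% (84.1 to 96.7), against 42.8% of all named genes. The intervals treat genes as draws and cover the counting of genes only. The median signal was 205 for the replication and repair genes and 40.1 for all named genes, a difference of 2.35 on the log2 scale (interval of the group median 1.72 to 3.38). Between 10 and 100 times the blank limit lay 39 genes, or 44.8%, against 17.8% of all named genes. Over 100 times lay Pcna alone, or 1.15%, against 3.08% of all named genes. Counted by probe, 92 of 95 were over the blank limit, against 72% of named probes, and 83 over the receptor limit, against 41.3%. Since the array read the RNA of a whole culture, more cells in S phase and more RNA per cell cannot be told apart.

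**Figure D1:**
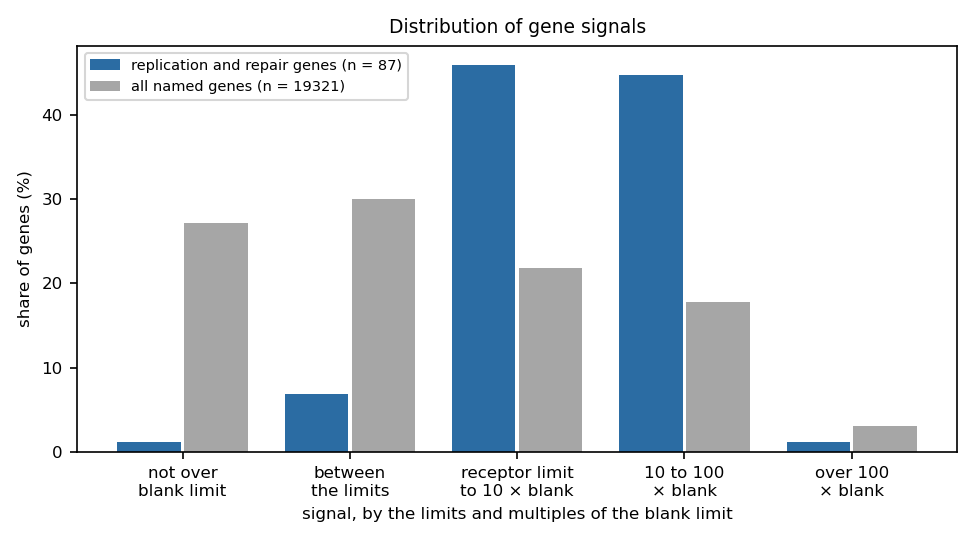
Share of genes (vertical axis, percent) in 5 ranges of signal, for the 87 replication and repair genes (blue) and all 19321 named genes (grey). The replication and repair genes are at 1.15% in the range not over the blank limit, against 27.2% of all named genes.

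The 38 measured genes of 7 role groups that act at the fork or the origin, called the replisome groups, all passed both limits, with a median of 665. They comprise the origin recognition complex, helicase loaders, the MCM ring and its activators, clamp and clamp loader, RPA and the replicative polymerases, and 32 of them lay over 10 times the blank limit. The other 49 genes are mostly of repair, but include Lig1, which seals Okazaki fragments. Of these, 48 cleared the blank limit, 42 of them the receptor limit, and 8 lay over 10 times the blank limit. The median of the 49 was 104. Of all 19321 named genes, 4029 lay over 10 times the blank limit. That is a smaller share than 32 of 38 and a larger share than 8 of 49. All 6 genes between the limits and the 1 gene not over the blank limit belonged to these 49. Both sets are lists of different probes on 1 array, so the gap between their medians is a description and was not tested.

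**Figure D2:**
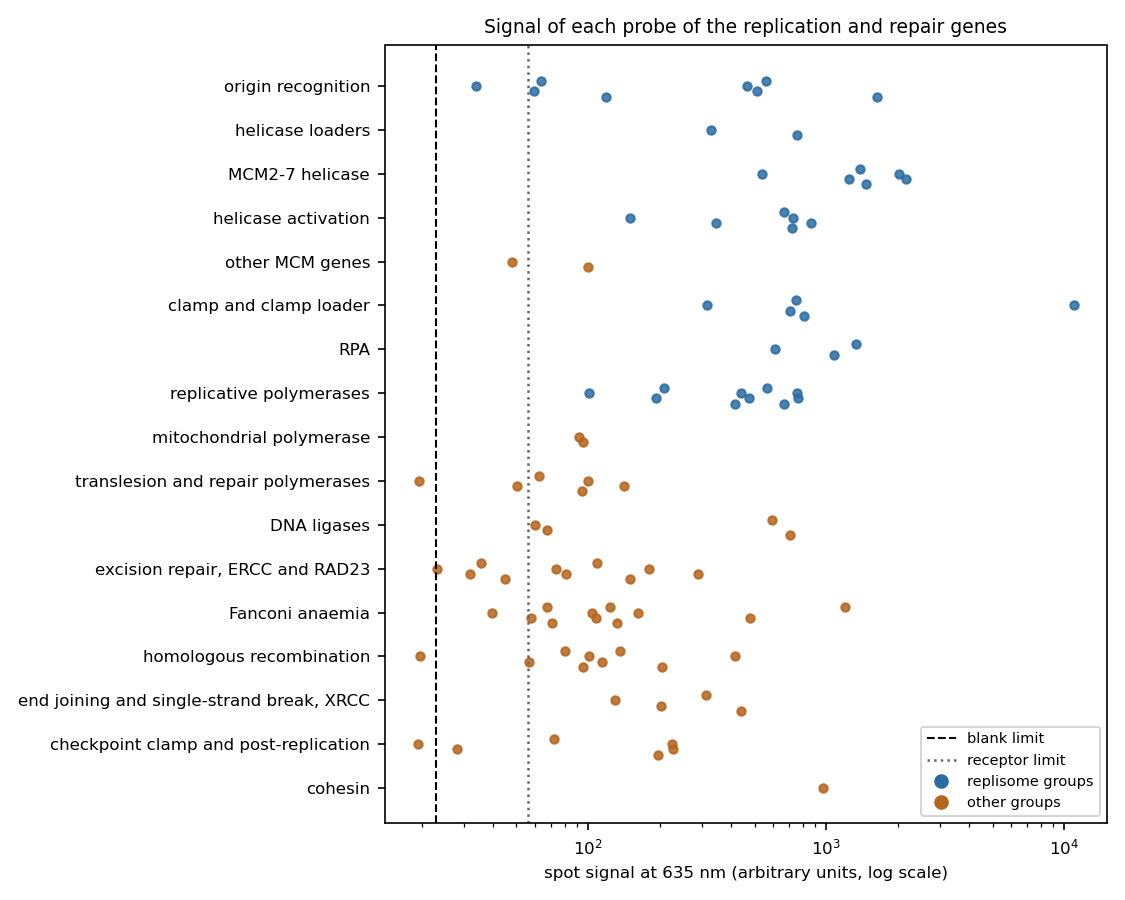
Signal of each of the 95 probes (horizontal axis, arbitrary units, log scale), 1 row for each role and 1 point for each probe, with the blank limit dashed and the receptor limit dotted. Replisome groups (blue) lie to the right of the receptor limit except for 1 Orc3 probe, at 33.9, and points left of the blank limit belong to Poln, Rad51d and Rad9b.

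The promoters of these genes gave a feature that played no part in choosing them. RefSeq windows of 300 bases (build GRCm38.p6), from 250 bases before the transcription start to 50 after it, were at hand for 73 of the 87 genes and for 15113 named genes in all. They were searched on both strands for TTTCCCGC, TTTCGCGC, TTTGGCGC and TTTGCCGC, the 4 words of the core E2F site. At least 1 word stood in 21 of 73 genes, or 28.8% (18.8 to 40.6), against 4.99% of 6549 other named genes over the receptor limit and 3.54% of all named genes. Of all 32851 windows in the table, 2.26% held one. The partner lists, genes of the same pathways that the symbol pattern does not take, held a word in 6 of 76 genes, or 7.89% (2.95 to 16.4). Genes of meiotic recombination, described below, held a word in 4 of 17, or 23.5% (6.81 to 49.9), an interval that holds the 28.8%. In the replisome groups 15 of 32 genes held a word, or 46.9% (29.1 to 65.3), and in the other groups 6 of 41, or 14.6% (5.57 to 29.2). The word TTTGCCGC stood in 0 of the 73 genes (interval 0 to 4.93). It stood in 0.702% of other named genes over the receptor limit and 0.576% of all named genes, and the interval holds both shares. A match in letters is a description and not a binding site, and the words were searched with signals already known.

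The windows below are 9 of the 13 that hold a word wholly before the start, picked as examples from several roles after the words were found, and that of Pcna, shown because it is the gene over 100 times the blank limit. Each runs 5′ to 3′ on the gene's strand and ends at the base before the transcription start, with 200 bases printed. Capitals mark the E2F words on either strand.
Mcm5: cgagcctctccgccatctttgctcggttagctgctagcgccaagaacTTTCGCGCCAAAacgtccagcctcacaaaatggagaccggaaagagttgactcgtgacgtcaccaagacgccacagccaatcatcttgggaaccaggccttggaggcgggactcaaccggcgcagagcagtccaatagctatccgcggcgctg
Mcm6: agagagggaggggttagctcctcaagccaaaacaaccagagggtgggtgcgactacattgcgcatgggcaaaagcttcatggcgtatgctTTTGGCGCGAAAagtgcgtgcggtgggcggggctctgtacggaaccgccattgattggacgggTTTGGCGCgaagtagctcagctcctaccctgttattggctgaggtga
Mcm7: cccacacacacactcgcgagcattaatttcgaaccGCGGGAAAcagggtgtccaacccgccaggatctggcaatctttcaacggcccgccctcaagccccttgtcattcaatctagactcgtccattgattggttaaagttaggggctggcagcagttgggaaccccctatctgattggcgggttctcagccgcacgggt
Cdc6: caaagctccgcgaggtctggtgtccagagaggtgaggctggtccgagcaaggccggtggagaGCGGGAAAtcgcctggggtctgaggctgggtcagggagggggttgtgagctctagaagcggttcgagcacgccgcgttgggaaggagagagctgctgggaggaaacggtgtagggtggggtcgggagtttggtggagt
Orc1: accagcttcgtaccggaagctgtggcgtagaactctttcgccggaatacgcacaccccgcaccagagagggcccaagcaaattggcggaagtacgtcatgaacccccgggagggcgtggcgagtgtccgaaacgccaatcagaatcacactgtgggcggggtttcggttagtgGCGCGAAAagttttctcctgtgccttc
Pola1: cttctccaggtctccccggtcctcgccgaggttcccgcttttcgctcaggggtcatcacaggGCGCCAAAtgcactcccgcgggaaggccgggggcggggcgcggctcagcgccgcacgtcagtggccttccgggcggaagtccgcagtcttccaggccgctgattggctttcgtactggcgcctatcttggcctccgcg
Rfc3: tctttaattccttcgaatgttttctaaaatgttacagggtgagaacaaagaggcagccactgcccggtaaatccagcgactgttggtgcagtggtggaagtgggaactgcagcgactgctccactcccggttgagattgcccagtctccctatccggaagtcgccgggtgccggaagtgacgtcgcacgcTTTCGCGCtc
Fancg: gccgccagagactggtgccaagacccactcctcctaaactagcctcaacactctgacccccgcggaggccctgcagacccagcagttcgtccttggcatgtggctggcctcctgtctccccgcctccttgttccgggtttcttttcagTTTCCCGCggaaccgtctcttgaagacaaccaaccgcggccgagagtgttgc
Brca2: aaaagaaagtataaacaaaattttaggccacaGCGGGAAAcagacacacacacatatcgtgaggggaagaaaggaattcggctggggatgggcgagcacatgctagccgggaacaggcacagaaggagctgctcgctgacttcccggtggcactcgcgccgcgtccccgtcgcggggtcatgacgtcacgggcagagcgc
Pcna: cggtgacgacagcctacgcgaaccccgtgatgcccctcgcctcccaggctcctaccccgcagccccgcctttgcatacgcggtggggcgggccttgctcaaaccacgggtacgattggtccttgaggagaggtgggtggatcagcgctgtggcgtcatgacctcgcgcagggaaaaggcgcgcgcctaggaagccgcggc

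The stretches lie at chr8:75109309-75109508 on the plus strand for Mcm5, chr1:128359706-128359905 on the minus strand for Mcm6 and chr5:138171884-138172083 on the minus strand for Mcm7. Those of the loader gene Cdc6 and the origin gene Orc1 lie at chr11:98907951-98908150 and chr4:108579254-108579453, both on the plus strand. Pola1, Rfc3 and Fancg have theirs on the minus strand, at chrX:93632156-93632355, chr5:151651209-151651408 and chr4:43010302-43010501. Brca2 has its stretch at chr5:150522421-150522620 on the plus strand, and Pcna on the minus strand at chr2:132253181-132253380. In Mcm5 a pair of words overlap as TTTCGCGCCAAA, at positions -153 and -149 from the start. Mcm6 has an overlapping pair, TTTGGCGCGAAA, at positions -110 and -106, and a further word at position -47. Pcna holds none of the 4 words in its window, which says only that these letters are not there.

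Of the 21 genes with a word, 13 hold one wholly before the start and 8 only across the start or in the first 50 bases after it. The MCM helicase genes with a window hold words in 4 of 5 cases (Mcm3, Mcm5, Mcm6 and Mcm7). Both helicase loader genes, Cdc6 and Cdt1, hold one, and so do 5 of 9 replicative polymerase genes, namely Pola1, Pold1, Pold3, Pole2 and Pole4. RPA genes (0 of 3), excision repair genes (0 of 7) and translesion and repair polymerases (0 of 4) hold none. A word stands in 4.99% of other named genes over the receptor limit and 3.54% of all named genes. Counts of 0 in groups this small therefore do not show a lack of words. CCAAT, the NF-Y box, stood in 58.9% (46.8 to 70.3) of the 73 genes, against 43.1% of other genes over the receptor limit. The Sp-type word GGGCGG stood in 69.9% (58.0 to 80.1), against 67.8%. For TATAAA the shares were 5.48% (1.51 to 13.4) against 9.07%, for the cell cycle element TTTGAA 11.0% (4.85 to 20.5) against 15.0%, and for the CRE word TGACGTCA 5.48% (1.51 to 13.4) against 3.94%. The windows had a median GC content of 60.3% in the 73 genes and 60.7% in other genes over the receptor limit.

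**Figure D3:**
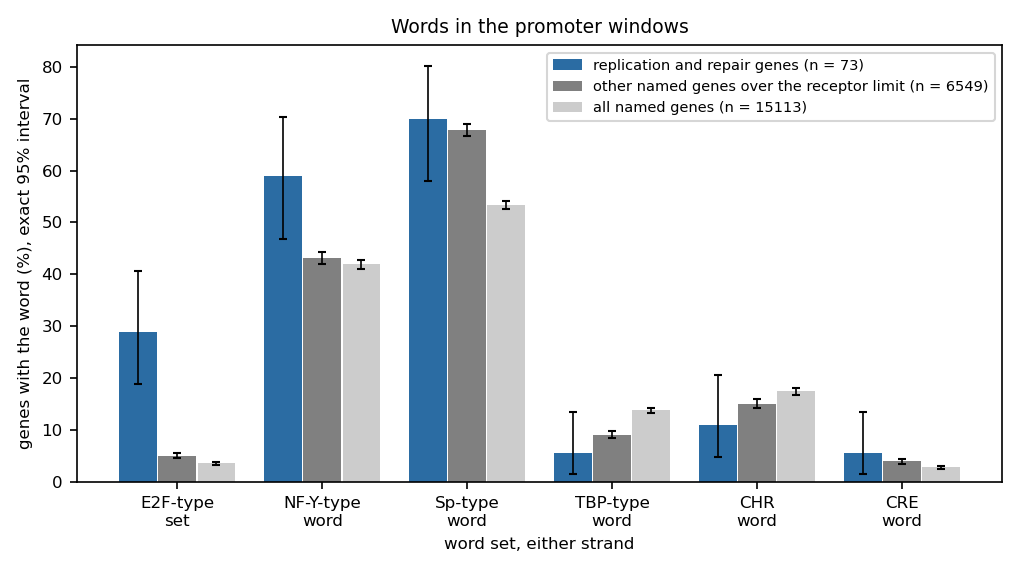
Share of genes with each word set in the 300-base promoter window (vertical axis, percent, bars with exact 95% intervals), for 73 replication and repair genes, 6549 other named genes over the receptor limit and all 15113 named genes. The E2F-type set stands at 28.8%, 4.99% and 3.54%, while the intervals of the Sp-type, TBP-type, CHR and CRE words in the 73 genes hold the share of other genes over the receptor limit.

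Origin recognition genes, whose products mark origins and recruit the loaders, all passed both limits. Orc2, a core subunit, read 514 and Orc4 read 557. Orc5 read 467, and Orc6, the smallest subunit, read 1631, or 71.0 times the blank limit. Orc1, the subunit that binds DNA with ATP and whose protein is broken down in S phase in human cells, read 119. Orc3 had 3 probes, at 63.3, 59.1 and 33.9, so that 1 of them lay between the limits. Cdc6, which joins the complex at the origin, read 329, and Cdt1, which brings the MCM ring to it, read 757. Among partners outside the pattern, Gmnn, which encodes geminin, the inhibitor of Cdt1, read 2592.

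The MCM ring, the motor of the replicative helicase, had a group median of 1431. Mcm2 read 538, Mcm3 1390, Mcm4 2025, Mcm5 1245, Mcm6 2159 and Mcm7 1472, so each subunit lay between 23.4 and 94.0 times over the blank limit. Activation turns the ring into a working helicase by adding Cdc45 and the 4 GINS subunits. Cdc45 read 664, Gins1 866, Gins2 722 and Gins4 726, and Gins3 read 150. Mcm10, a factor that helps the ring to open, read 344. The related genes Mcm8 and Mcm9, whose products form a helicase used in recombination rather than in the ring, read 99.5 and 48.0, and Mcm9 lay between the limits.

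Pcna, the sliding clamp, read 11015, or 479 times the blank limit. The gene table lists pseudogenes named after this gene, Pcna-ps1 and Pcna-ps2, and whether their transcripts bind the Pcna probe was not tested. The clamp loader is made of a large and 4 small subunits. The large subunit Rfc1 read 316, and the small subunits Rfc2, Rfc3 and Rfc5 read 804, 745 and 707. Rfc4 had no named probe here. The RPA genes, whose products coat single-stranded DNA, read 608 for Rpa1, 1084 for Rpa2 and 1333 for Rpa3.

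All 10 genes of the replicative polymerases passed both limits, from 101 to 765. Polymerase alpha, which extends the primer, was read at 416 for its catalytic subunit Pola1 and 473 for Pola2. For polymerase delta, which copies the lagging strand, Pold1, the catalytic subunit, read 665 and Pold2 read 765. The smaller delta subunits Pold3 and Pold4 read 208 and 192. Polymerase epsilon copies the leading strand. Its catalytic subunit Pole read 101, while Pole2, Pole3 and Pole4 read 754, 567 and 438. How far the probes themselves set these readings was not tested. Polg, the polymerase of mitochondria, read 95.5, and its accessory subunit Polg2 read 91.7.

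Polymerases that bypass lesions or fill gaps had a median of 78.0, against 40.1 for all named genes. Polh, which copies past ultraviolet damage, read 99.8, Poli read 142 and Polk read 93.9. Poll, a gap-filling enzyme of base excision and end joining, read 62.1. Polq, which joins ends through short homologies, lay between the limits at 50.3. Poln (probe M300010820) lay under the blank limit, at 19.4 with a local background of 19.9, and its cell in the authors' table is empty. The pattern leaves out some polymerases. Of 7 further genes, 6 passed both limits: Polb of base excision repair at 259, Polm at 61.6, Primpol at 77.4, and the translesion genes Rev1 at 136, Rev3l at 201 and Mad2l2 at 249. Dntt, the template-free polymerase of lymphocyte precursors, read 20.9 and lay under the blank limit.

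The 3 DNA ligases passed both limits. Lig1, which seals Okazaki fragments, read 707 and 595 on its 2 probes. Lig3, the partner of Xrcc1, read 66.9, and Lig4, the ligase of end joining, read 60.1, so both lay within 1.2 times the receptor limit.

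Nucleotide excision repair cuts out bulky lesions such as those of ultraviolet light. Of 8 genes, 8 cleared the blank limit, and 6 of them the receptor limit, against 72.8% and 42.8% of all named genes. The nuclease partners Ercc1 and Ercc4 read 150 and 73.1, and the other nuclease of the pathway, Ercc5, read 109. Ercc3 and Ercc2 encode the helicases of the same complex, TFIIH. The Ercc3 probe read 289, but both Ercc2 probes lay between the limits, at 35.4 and 31.8. Ercc8 and Ercc6 act where RNA polymerase stalls at a lesion. Ercc8 read 80.5, and the Ercc6 probes read 44.6 and 23.2, the lower of them 1.01 times the blank limit. Rad23b, a partner of the damage sensor Xpc, read 180. Of 9 partner genes of this pathway, 8 cleared the blank limit, and 7 of them the receptor limit. Cetn2 read 857, the damage sensor subunit Ddb1 575, and the TFIIH subunits Gtf2h1 and Gtf2h3 777 and 722. Xpc itself lay between the limits at 47.6, and Uvssa, a factor at stalled polymerases, did not pass at 20.7.

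All 10 Fanconi genes, which clear crosslinks between strands, cleared the blank limit, and 9 of them the receptor limit. In the core complex Fanca read 108, Fancb 132, Fancc 70.6, Fance 104 and Fancf 162. Fancg read 1204, and Fancl, the ubiquitin ligase of the complex, read 481. Fancm, a DNA translocase, read 123 and 57.5 on its 2 probes. Of the pair that the ligase modifies, Fanci read 67.3, and Fancd2 lay between the limits at 39.4. Of 6 measured partners, 3 passed the receptor limit, or 50% (11.8 to 88.2). That is near the 42.8% of all named genes. The 3 were Ube2t, the conjugating enzyme of Fancl, at 524, Usp1, which removes the ubiquitin, at 901 and Faap24 at 278. Slx4, a scaffold for nucleases, and Faap100 lay between the limits at 47.5 and 30.8. The nuclease gene Fan1 read 21.9 and did not pass the blank limit, but passed with 1 SD in place of 2 (limit 21.8).

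Homologous recombination repairs breaks with the sister copy. All 8 measured genes passed both limits, and Rad54b and Xrcc2 had no named probe here. Brca1 read 114 and Brca2, which acts with it in this pathway, read 101. Rad50, part of the complex that trims and holds broken ends, read 415. Among genes that act in strand exchange, Rad51b read 80.2, Rad51c 205 and Xrcc3 56.2, which is 1.01 times the receptor limit. Rad51d read 136 on one probe and 19.7 on the other, on either side of both limits. Rad52 read 95.1. Of 14 measured partners, 13 cleared the blank limit, and 11 of them the receptor limit, against 72.8% and 42.8% of all named genes. Palb2, which links Brca1 to Brca2, read 22.3 and did not pass, though it did with 1 SD in place of 2. Bard1, the partner of Brca1, and the helicase gene Wrn lay between the limits at 43.1 and 55.2. The first 4 of the 11 in alphabetical order, Blm, Brip1, Eme1 and Exo1, read 262, 114, 1446 and 254. A further Eme1 probe read 148.

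End joining ligates breaks directly. Xrcc5 and Xrcc6, the Ku subunits that bind the ends, read 130 and 437, and Xrcc4, the partner of Lig4, read 202. Xrcc1, the scaffold of single-strand break repair, read 313. Among 4 end joining partners, Prkdc, the kinase that Ku recruits, read 642 and Aplf read 86.2. The partner Nhej1 read 72.6 and 64.3 on its probes, while Paxx lay between the limits at 36.5. The checkpoint clamp that signals stalled forks is built from Rad1, at 228, Rad9a, at 71.9, and Hus1, outside the pattern, at 242. Its loader Rad17 read 197. Rad18, the ligase that marks the sliding clamp for bypass polymerases, read 225. Rad9b, the paralog of Rad9a known from testis, lay between the limits at 28.2 on one probe and under the blank limit at 19.2 on the other. Rad21, a cohesin subunit that the pattern takes by its name, read 968.

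The partner lists, 107 symbols of the same pathways that the pattern does not take, are given beside the group. Of 96 measured, 92 cleared the blank limit, which is 95.8% (89.7 to 98.9), against 72.8% of all named genes. The receptor limit was cleared by 83 of them, which is 86.5% (78.0 to 92.6), against 42.8% of all named genes. All 9 nucleotide supply genes passed both limits, among them Dck at 147, Dctd at 449, Dut at 2970 and the ribonucleotide reductase subunit Rrm1 at 1869. So did all 13 genes of priming, flap removal and other clamp loaders, among them Chtf18 at 174, Chtf8 at 340, the nuclease gene Dna2 at 159 and Dscc1 at 250. Of 9 checkpoint genes 9 passed, with Atm at 101, Atr at 187, Atrip at 161 and Chek1 at 266. Of 12 regulators of licensing and firing 10 passed the receptor limit, among them Dbf4 at 573, Donson at 125 and Mtbp at 258. The kinase gene Cdc7, whose activator is Dbf4, and the fork mediator Clspn lay between the limits at 29.6 and 36.3. In base excision repair 12 of 13 passed the receptor limit, with Apex1 at 2376, Aptx at 173, Mbd4 at 86.8 and Mutyh at 74.9. Ogg1, the glycosylase for oxidised guanine, lay between the limits at 28.1. With the local background subtracted, 11 of these 13 genes and 9 of the 12 regulators of licensing and firing passed the receptor limit.

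Genes of meiotic recombination were set beside the group, since they use related enzymes in germ cells. Of 21 measured, 9 cleared the blank limit, which is 42.9% (21.8 to 66.0), and 4 of these the receptor limit, which is 19.0% (5.45 to 41.9). Among all named genes the shares were 72.8% and 42.8%. Dmc1, the strand exchange gene of meiosis, read 19.5, Spo11, which makes the meiotic breaks, read 18.3, and the axis genes Sycp1, Sycp2 and Sycp3 read 19.3, 19.9 and 18.5. Hormad1, Mcmdc2, Mei4, Rec114, Smc1b, Stag3 and Tex15 lay under the blank limit too, at 18.1 to 22.7. Hfm1, Hormad2, Meiob, Msh4 and Prdm9 lay between the limits at 23.4 to 33.8 on their highest probes. A further Hfm1 probe read 17.2, under the blank limit. The 4 over the receptor limit were Mnd1 at 865 and Psmc3ip at 605, whose products form a complex that helps strand exchange, Rec8 at 67.3 and Msh5 at 59.9. The interval of the meiotic list at the receptor limit lay under that of the replication and repair genes, and the difference was not tested.

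**Figure D4:**
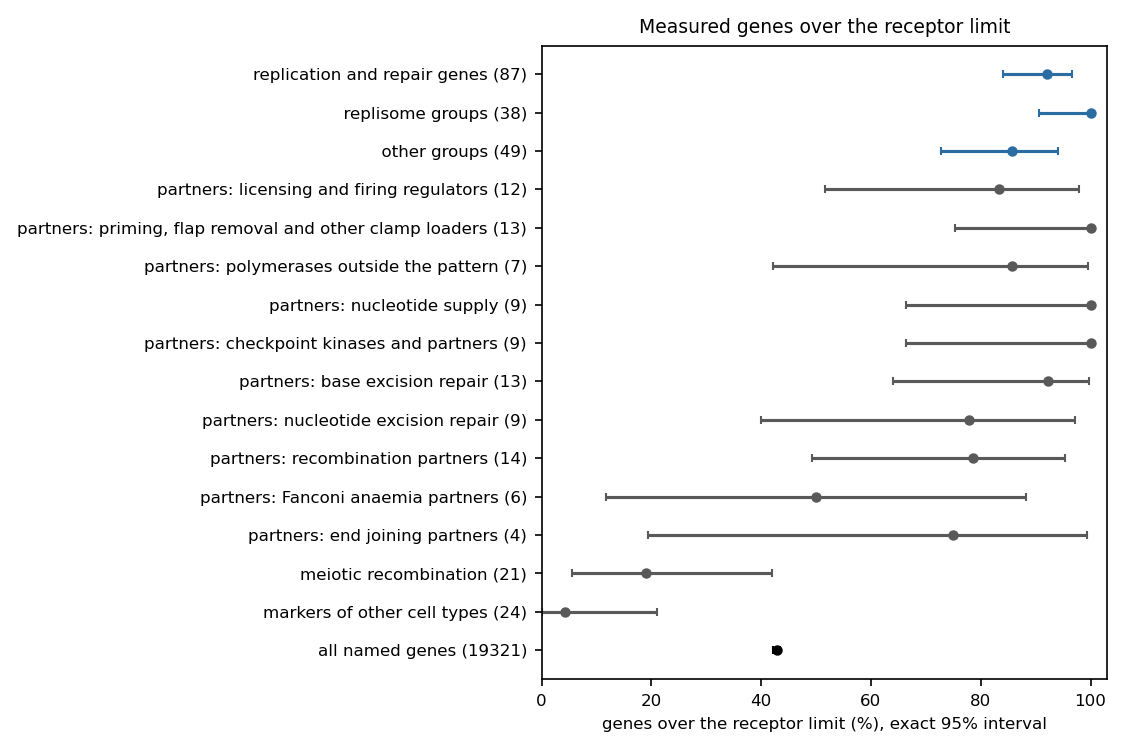
Share of measured genes over the receptor limit (horizontal axis, percent, points with exact 95% intervals) for the replication and repair genes, their replisome and other groups, 10 partner lists, meiotic recombination genes, markers of other cell types and all named genes, with the genes measured in brackets. The meiotic list stands at 19.0%, against 92.0% for the replication and repair genes and 42.8% for all named genes.

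Of the 87 genes, 7 had several probes. The limits split 2 of them each, Rad51d and Rad9b by the blank limit and Orc3 and Rad51d by the receptor limit. Lig1 and Ercc2 probes differed by 1.19 and 1.11 times, and those of Rad51d by 6.91 times. Over the array, the receptor limit split 35.2% of 1283 named genes with several probes. The other 80 genes rest on 1 probe each, read in 1 spot.

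Local background is the brightness around a spot. The signal was a median of 2.79 times the local background over the 95 probes, against 1.45 times over all named probes and 1.2 times over the blanks. It was under 1.5 times for 16 of the 95, or 16.8%, against 52.3% of all named probes. Pcna read 11015 over a local background of 7195, which leaves 3820 after subtraction. Mcm3 read 1390 over 1169, which leaves 221, whereas Mcm7 read 1472 over 156 and keeps 1316. Orc6 stood at 43.6 times its local background of 37.4. Subtracting the local background and setting both limits anew put Fance, Lig4, Poll, Rad51b, Rad9a and Xrcc3 between the limits, took Ercc6 under the blank limit and put Mcm9 over the receptor limit. All 38 genes of the replisome groups passed both limits with it.

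**Figure D5:**
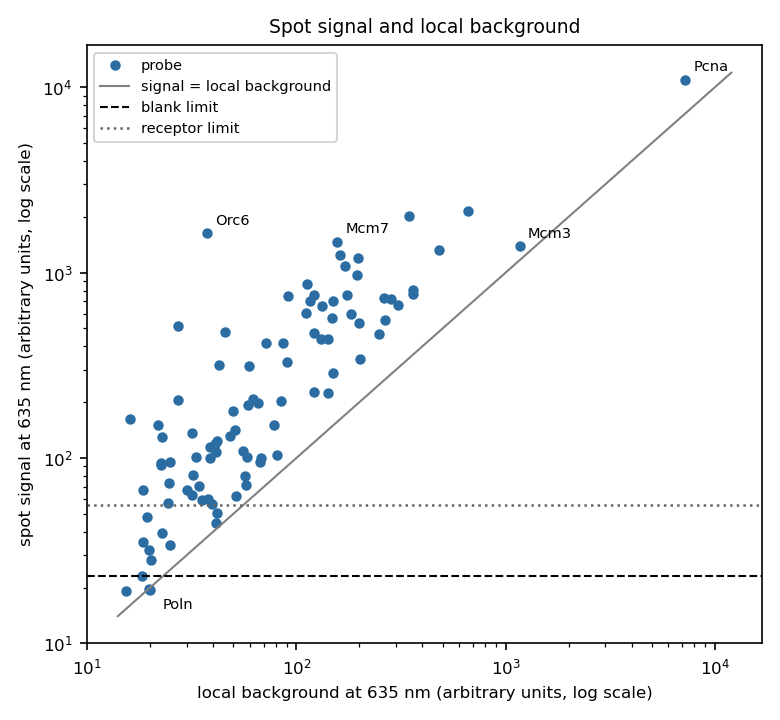
Spot signal (vertical axis) against local background (horizontal axis) of the 95 probes, both in arbitrary units on log scales, with the line of equal values and both limits. Mcm3, at 1390 over 1169, lies near the line of equal values, and Orc6, at 1631 over 37.4, lies far above it.

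The authors' processed table held values for 92 of the 95 probes, from 1 to 5341 with a median of 87, against a median of 25 over the whole table. The 3 empty cells were Poln and the lower probes of Rad51d and Rad9b, the same 3 probes that were not over the blank limit. Over the 56 probes with values above 50, the table's value divided by the signal less the mean of the blanks was 0.486 (SD 0.000908).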

How the data were processed

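RNA of parental RAW264.7 cells was amplified to amino allyl RNA and coupled to Cy5, per the labels' protocols. The deposited scanner file gives spot and local background intensity, from a scan at 3 gains, per the file headers. A second deposited table holds the authors' processed intensity, whose scale and centring are not stated. The software and any genome build are not given in the sources used here. Of 27456 spots, 0 carried a bad flag.

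The blank limit used 2464 of 2736 blanks (5% left out at each end, mean 20.6, SD 1.18) plus 2 SD. Spots of a probe were averaged. Symbols came from the platform annotation, updated through gene identifiers to RefSeq GRCm38.p6 (20556 of 20690 probes matched). The group was taken with the platform's own symbols. Promoter windows came from RefSeq (GRCm38.p6). The members and lists were chosen with earlier results of these data known. Naming was open to every member, and in other lists to genes not over the receptor limit and the first 4 in alphabetical order over it; Hus1, Rev1 and Rev3l were chosen after their values were seen. Some items are not reported here. Python 3.11.15, scipy 1.17.1 and limma 3.58.1 (normexp, offset 50) were used. The calculation of the blank limit was checked on simulated data, with silent probes drawn from the mean and SD of the blanks. Such data cannot show how many silent probes of the real array pass the limit. Alternatives changed the blank limit, the receptor percentile, the probe rule, the background, the source of values and the unit counted. Mutant lines were not analysed here.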

Additional observations from a re-analysis of the deposited data

How the results depend on the processing

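Genes over the blank limit stayed between 84 and 86 of 87 in every setting that counts genes, and 92 of 95 probes were over it. Genes over the receptor limit stayed between 75 and 83 in the settings run, except that the 99th percentile of the receptor probes, 146, left 51 (35 of 38 in the replisome groups and 16 of 49 in the others), against 27.5% of all named genes. A higher limit calls fewer genes by its construction. The median difference of 2.35 on the log2 scale fell to 1.37 with normexp and an offset of 50, which compresses low signals by its construction, and lay between 2.34 and 3.31 otherwise. The share of genes with an E2F word, 28.8%, stood at 17.8% with the bases before the start only. It was then 2.92% of all named genes, 4.23% of other named genes over the receptor limit and 6.58% (2.17 to 14.7) of the partner genes. With TTTNNCGC the share in the group was 30.1%, against 7.65%, 10.2% and 15.8% (8.43 to 26) in the same order. With the first listed window of each gene it was 26%, with no share computed for other genes. These 3 settings and the choice of words were added after the data were seen. No paired analysis was possible because there is 1 array. A low reading on 1 probe does not show that a transcript is absent.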

Other observations

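Several replication and repair genes start head to head with another gene. In the RefSeq promoter table, 24 of the 73 genes with a window, or 32.9% (exact 95% interval 22.3 to 44.9), had the start of a protein-coding gene on the opposite strand within 1000 bases upstream. The share was 15.1% (14.3 to 16.0) of 6549 other named genes over the receptor limit and 9.63% of all named genes. In the partner lists it was 28.9% (19.1 to 40.5), close to that of the group, and in the meiotic list 11.8% (1.46 to 36.4). It was 25% (11.5 to 43.4) in the replisome groups and 39.0% (24.2 to 55.5) in the others. The table is not complete, and the count was made after the signals were known. These neighbours numbered 25, of which 22 had a named probe. All 22 cleared the blank limit, which 72.8% of all named genes passed. Of the 22, 17 cleared the receptor limit. Among 1320 neighbours of other named genes, taken whatever the signal of those genes, 73.1% cleared it, which is close to 17 of 22. No share over the blank limit was computed for those neighbours.

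Of these pairs, 5 were picked as examples after their values were seen. Brca1 starts 152 bases from Nbr1, an autophagy receptor gene that read 69.3. Rad9b, between the limits at 28.2, starts 123 bases from Vps29, a retromer subunit gene that read 1027. Orc3, at 63.3, starts 15 bases from Rars2, a mitochondrial tRNA synthetase gene at 661, and Orc1, at 119, starts 118 bases from the splicing factor gene Prpf38a at 996. Rad51c, at 205, faces the germ cell gene Tex14 at 111 bases, which lay between the limits at 33.1. The windows of meiotic recombination genes held an E2F word in 4 of 17 cases, or 23.5% (6.81 to 49.9). Of the 21 measured genes of that list, with or without a window, 19.0% passed the receptor limit.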
